A study of Mus musculus with 10 samples.

Results

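Integrins and leukocyte adhesion genes were followed through open chromatin in 5 kinds of mouse bone marrow progenitor. The group comprised 33 genes: 23 integrin chains (16 alpha and 7 beta) and 10 genes for selectin, immunoglobulin-family and hyaluronan-binding adhesion molecules. The accessible regions of all 10 libraries on chromosomes 1 to 19 and X were combined into merged regions wherever they shared at least 1 bp. A merged region belonged to the group when its centre lay inside one of the 33 genes or within 30 kb of it in mm10. This gave 417 of 114366 merged regions, each counted once and assigned to the nearest of the 33 genes. All 33 genes had a region, from 1 at Itga11 to 24 at Itga8 (median 13). Of the 417 regions, 210 were centred inside the gene and 207 in its flanks, and 125 lay nearer to another protein-coding gene, so assignment to a gene is by position only.

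Accessibility was measured by ATAC-seq, in which the transposase Tn5 cuts open DNA and tags the ends for sequencing. Bone marrow cells of C57BL/6 mice were enriched on magnetic columns, sorted by flow cytometry (5000 to 7200 cells) and tagged in the presence of digitonin. All sorted cells were negative for lineage markers, and the antibodies of that lineage mix were not given in the sources used here. Each of 5 groups had 2 libraries. Wild-type LT-HSC (long-term hematopoietic stem cells) were CD117+ Sca-1+ CD135- CD48- CD150+. Wild-type lymphoid-primed multipotent progenitors (LMPP) were CD117+ Sca-1+ CD135+, and their cell type field names short-term stem cells instead. Wild-type monocyte-dendritic cell progenitors (MDP) were Sca-1- CD117+ IL-7R- CD115+, and wild-type common dendritic cell progenitors (CDP) were Sca-1- IL-7R- CD115+ CD135+ with intermediate CD117. The 5th group, IRF8KO MDP, was sorted like wild-type MDP from mice labelled as lacking IRF8, a transcription factor needed for monocyte and dendritic cell development; its allele was not given in the sources used here either. The design text calls the wild-type duplicates biological but names no animals, so the spread between libraries may in part be technical.

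Integrins are receptors made of 1 alpha and 1 beta chain that bind matrix proteins or ligands on other cells. The pairs built on the beta chain of Itgb2 are confined to leukocytes and include the antigens known as CD11a (Itgal), CD11b (Itgam) and CD11c (Itgax), which serve as markers of myeloid and dendritic cells. In bone marrow, the alpha4 chain of Itga4 binds VCAM1 on stroma and helps retain progenitors, while P-selectin (Selp) and its ligand PSGL-1 (Selplg) start the rolling of leukocytes on vessel walls. Antibodies to CD11b are a common part of lineage mixes, so a sort for lineage-negative cells can itself bear on which cells with an open Itgam gene were kept.

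Sequences around the transcription start were matched for 20 of the 33 genes (22 starts; RefSeq, GRCm38.p6, the assembly of mm10). Those printed here are the 6 starts whose accessibility was called gained or lost in a comparison, and the starts of Cd44 and Itga2, which were open in all 10 libraries. Each runs 5′ to 3′ in the direction of the gene, from 250 bases before the start to 50 after it. Capitals mark matches to the 5 motifs described after them. The starts gained from LT-HSC to LMPP were those of Itgax (chr7:128129300-128129599, plus strand), Itgb7 (chr15:102231886-102232185, minus strand), Itgb5 (chr16:33829415-33829714, plus strand), Itga3 (chr11:95076665-95076964, minus strand) and Selp (chr1:164115014-164115313, plus strand). The start of Itga2b (chr11:102469834-102470133, minus strand) was lost in IRF8KO MDP. The starts open throughout were those of Cd44 (chr2:102901616-102901915, minus strand) and Itga2 (chr13:114932051-114932350, minus strand).
Itgax: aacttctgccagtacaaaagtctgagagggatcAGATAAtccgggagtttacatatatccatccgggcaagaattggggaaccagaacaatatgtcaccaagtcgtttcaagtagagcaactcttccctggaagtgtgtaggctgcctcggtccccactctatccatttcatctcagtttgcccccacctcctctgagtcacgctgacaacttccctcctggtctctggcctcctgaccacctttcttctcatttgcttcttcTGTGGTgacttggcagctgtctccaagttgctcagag
Itgb7: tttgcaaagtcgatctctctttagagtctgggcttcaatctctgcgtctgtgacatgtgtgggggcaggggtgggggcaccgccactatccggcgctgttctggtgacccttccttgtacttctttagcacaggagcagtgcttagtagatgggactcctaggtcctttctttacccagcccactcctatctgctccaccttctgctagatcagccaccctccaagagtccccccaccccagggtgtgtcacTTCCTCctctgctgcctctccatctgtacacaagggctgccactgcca
Itgb5: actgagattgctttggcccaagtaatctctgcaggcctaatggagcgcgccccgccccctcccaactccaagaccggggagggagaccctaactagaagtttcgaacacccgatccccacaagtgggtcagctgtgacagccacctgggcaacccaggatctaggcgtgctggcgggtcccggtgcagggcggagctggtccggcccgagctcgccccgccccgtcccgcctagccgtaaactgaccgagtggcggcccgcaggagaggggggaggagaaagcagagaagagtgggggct
Itga3: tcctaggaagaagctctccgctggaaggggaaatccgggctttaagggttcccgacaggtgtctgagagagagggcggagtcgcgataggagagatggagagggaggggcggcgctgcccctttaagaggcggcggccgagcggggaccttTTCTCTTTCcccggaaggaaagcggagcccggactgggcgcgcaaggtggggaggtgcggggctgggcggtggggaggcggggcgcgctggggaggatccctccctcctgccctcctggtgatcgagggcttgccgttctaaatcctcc
Selp: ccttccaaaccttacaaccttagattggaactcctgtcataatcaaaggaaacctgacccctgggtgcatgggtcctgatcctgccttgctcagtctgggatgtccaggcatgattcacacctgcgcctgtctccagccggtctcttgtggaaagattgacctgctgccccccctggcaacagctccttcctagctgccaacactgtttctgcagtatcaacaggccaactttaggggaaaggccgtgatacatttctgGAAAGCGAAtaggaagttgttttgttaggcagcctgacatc
Itga2b: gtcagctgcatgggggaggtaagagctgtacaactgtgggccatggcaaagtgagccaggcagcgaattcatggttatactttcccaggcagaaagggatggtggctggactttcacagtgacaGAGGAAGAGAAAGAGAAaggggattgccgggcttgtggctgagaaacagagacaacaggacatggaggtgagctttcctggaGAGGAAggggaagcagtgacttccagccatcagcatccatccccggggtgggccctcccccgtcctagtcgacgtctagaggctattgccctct
Cd44: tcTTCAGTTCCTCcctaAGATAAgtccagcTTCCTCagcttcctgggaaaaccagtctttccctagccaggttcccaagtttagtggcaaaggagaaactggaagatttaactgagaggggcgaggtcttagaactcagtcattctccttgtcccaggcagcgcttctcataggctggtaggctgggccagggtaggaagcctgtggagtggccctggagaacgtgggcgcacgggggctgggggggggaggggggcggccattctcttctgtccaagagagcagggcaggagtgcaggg
Itga2: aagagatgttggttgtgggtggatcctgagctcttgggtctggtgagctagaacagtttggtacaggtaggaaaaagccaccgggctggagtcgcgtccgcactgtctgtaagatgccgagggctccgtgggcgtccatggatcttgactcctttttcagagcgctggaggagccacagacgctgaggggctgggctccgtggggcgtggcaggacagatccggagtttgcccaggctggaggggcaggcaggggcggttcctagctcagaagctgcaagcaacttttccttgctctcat

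The Itgax, Itgb7 and Itgb5 starts behaved alike across the libraries: each was without a peak in both LT-HSC libraries and had one in the 8 others. Over all merged regions, 18.5% were gained from LT-HSC to LMPP. With lists cut to the length of LT-HSC replicate 1, Itgax had no region in any LT-HSC or LMPP list. At that length Itga3 gained 0 of 2 regions, Selp gained 0 of 5 and lost 2, Itgb5 gained 1 of 5 and Itgb7 2 of 6. The share gained over all regions was then 11.3%. The Itga3 and Selp starts had a peak in both LMPP libraries, in MDP replicate 2, in both CDP libraries and in no other. The Itga2b start had one in all 8 wild-type libraries and in neither IRF8KO library. Starts with a peak in all 10 libraries were those of Itga1, Itga2, Itga4, Itga8, Itgav, Itgb1, Icam1 and Cd44. The Itgam and Itga5 starts were missed only in LT-HSC replicate 1 and the F11r start only in IRF8KO replicate 2. No library had a peak over the listed starts of Itgb6, Itga10 and Itga11 or over the second start of Itga3.

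Short motifs (5) of blood transcription factors were searched on both strands, as a description of these letters and not of binding. The PU.1 core GAGGAA was in 11 of the 22 starts, against 28.2% of 32619 gene starts of the same length. Among the starts printed above, its matches lay at -126 and -44 in Itga2b (positions of the first base from the start site). In Itgb7 it lay at 3 on the minus strand, and in Cd44 at -243 and -220 on the minus strand. Matches in starts not printed are not listed. The ETS-IRF composite GGAANNGAA was in 4 (8.14% of all starts) and the interferon-response motif GAAANNGAA in 4 (8.53%). In Itga2b the composite lies at -124, over the first PU.1 core, and the interferon-response letters at -118, over the end of the composite. Selp holds the interferon-response letters at 10, Itga3 at -99 on the minus strand, and Cd44 the composite at -248 on the minus strand, over its first PU.1 core. The RUNX core TGTGGT was in 3 starts (16.6% of all), among them Itgax at 14, and the GATA core AGATAA in 2 (11.2% of all), Itgax at -217 and Cd44 at -233. Itgb5 and Itga2 held none of the 5.

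Peak lists held 31325 to 69598 peaks from 4790046 to 10166833 tags, with no tag count per peak, so regions were compared by whether a library had a peak there. LT-HSC replicate 1 stood apart, with 31325 peaks and 19.32% of its tags in peaks, against 38.06% to 53.74% elsewhere. The IRF8KO libraries had 50728 and 54277 peaks, against 62130 and 64515 in wild-type MDP. Marker genes separated the stages in part. Dntt had an open start only in LMPP, Ly86 only in wild-type MDP and CDP, and Mpo and Ccr2 in every library but LT-HSC. Kit, Mecom, Flt3 and the MDP marker Cx3cr1 had open starts in all 10, and Zbtb46, a dendritic marker, in none. Slamf1, an LT-HSC marker, was open only in LMPP replicate 1. The erythroid markers Klf1 and Gata1 were open in both LT-HSC libraries and no other. The neutrophil markers Camp and S100a9 were open in both LT-HSC and neither LMPP library. Irf8 itself had an open start in 9 libraries, both IRF8KO libraries included, so the peaks give no check of the genotype. Of the T and B cell marker starts, Cd3e, Cd3d, Cd3g, Cd79a and Pax5 had no peak in any library, Cd8a had one in both CDP libraries, and Ebf1 in LT-HSC replicate 2, both LMPP libraries and IRF8KO replicate 1.

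The adhesion gene regions opened beyond the background at MDP. LT-HSC libraries detected 25.2% and 44.4% of the 417 regions, LMPP 52.8% and 53.2%, MDP 63.1% and 69.1%, and CDP 68.3% and 65.7%. The IRF8KO libraries detected 50.6% and 53.5%. Over all 114366 regions the same libraries detected 26.4%, 44.3%, 53.8%, 54.6%, 52.4%, 54.2%, 59.7%, 55.9%, 42.5% and 45.8%. In LT-HSC and LMPP the adhesion genes thus differed from the background of their own library by -1.34 to 0.034 points, and in the 6 CD115+ libraries by 7.69 to 14.9 points. From LMPP to MDP, the excess over the background went from -1.20 ± 0.202 to 12.8 ± 2.96 points (SD, n = 2 each), a difference of 14.0 points with no overlap of the groups. With 2 libraries against 2, an exact two-sided permutation test cannot go below p = 0.33, the value it gave here (0.416 after Benjamini-Hochberg adjustment over 5 comparisons). From wild-type to IRF8KO MDP the excess went from 12.8 ± 2.96 to 7.87 ± 0.256 points, a difference of -4.92 (exact permutation p = 0.33). In such pooled cells, a change in the share of a cell type and a change in accessibility per cell cannot be told apart.

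**Figure D1:**
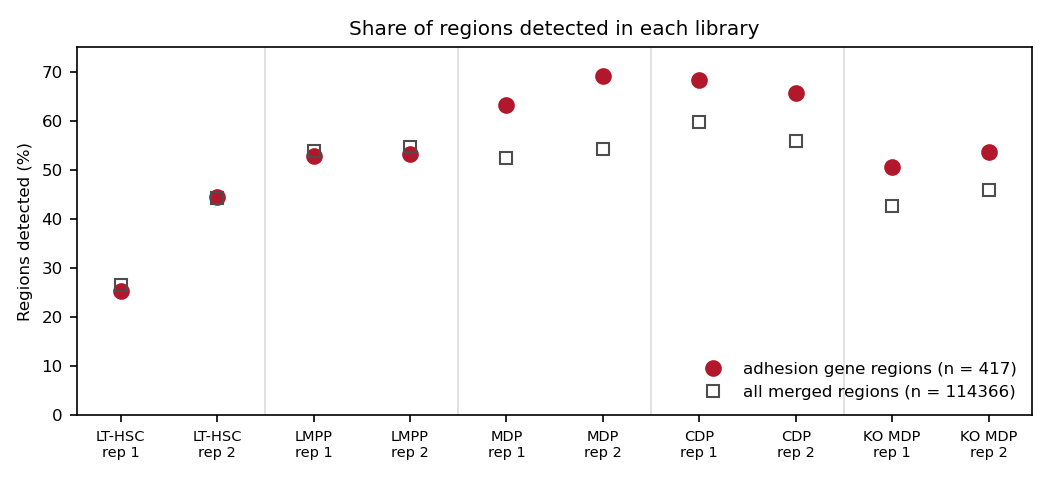
Percent of regions with a peak in each library (y axis), for the 417 adhesion gene regions (filled circles) and all 114366 merged regions (open squares), with the 10 libraries along the x axis. The circles lie on the squares in LT-HSC and LMPP and 7.69 to 14.9 points above them in the other 6 libraries.

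A region is called gained in a comparison when it had a peak in both libraries of the later or mutant group and in no library of the other, and lost when the reverse held, out of the regions with a peak in at least 1 of the 4 libraries. From LT-HSC to LMPP, 53 of 275 adhesion gene regions were gained (19.3%, with 18.5% over all regions) and 1 was lost (0.364%, with 2.37% over all regions), so the gains matched the background. Itga8, a fibronectin receptor chain, gained 6 of 15, Itgb6 4 of 6, Itgam 4 of 10, Itgb5 4 of 13, Itgax 3 of 3 and Selp 3 of 8, and 23 of the 33 genes had a net gain. The one lost region lay inside Itgb6 (chromosome 2, 60627872 to 60628635) and had a peak in both LT-HSC libraries and in no other. This comparison leaned on list length. With all lists cut to the same number of rows, 14 regions were gained and 14 lost of 155 (9.03% each, with 11.3% and 9.12% over all regions). Without LT-HSC replicate 1, 54 were gained and 29 lost (19.8% and 10.6%, with 19.1% and 9.92% over all regions). Without replicate 2, 99 were gained (40.1%, with 37.2% over all regions). A call needs only 3 libraries when 1 is left out, so counts and background rise together.

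From LMPP to MDP the adhesion genes gained more, and lost less, than regions in general. Of 348 regions, 62 were gained (17.8%, with 12.9% over all regions) and 24 lost (6.90%, with 13.4% over all regions). Selplg gained 7 of 18 and Itga8 7 of 22, followed by F11r, the junction molecule JAM-A (4 of 12), Itga5, the fibronectin receptor chain (4 of 15), Itgb5 (4 of 17) and Itgb2 (4 of 20). Losses were fewer: Itga8 lost 3 of 22, and Jam3, Itgb6, Itgav, Itga4 and Cd44 lost 2 each. Net gains were seen at 18 genes and net losses at 5. At equal list length 62 were gained and 22 lost of 341 (18.2% and 6.45%, with 13.2% and 13.3% over all regions), and the lists of these 4 libraries differ little in length. Losses were also below the background without MDP replicate 2, the omission that raised them most, at 37 (11.6%, with 17.2% over all regions).

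From MDP to CDP few regions changed. Of 345, 21 were gained (6.09%, with 8.80% over all regions) and 15 lost (4.35%, with 4.94% over all regions), neither above the background. Itgal, the alpha chain of LFA-1, gained 3 of 13 and lost 2, Pecam1 gained 3 of 13, and Esam, Itga7 and Itga1 lost 2 each. Leaving out MDP replicate 2 raised the gains to 38 (11.6%, with 13.4% over all regions) and the losses to 28 (8.54%, with 8.72% over all regions). Losses were 32 without MDP replicate 1 (9.64%, with 9.91% over all regions) and 24 without CDP replicate 1 (7.12%, with 8.03% over all regions).

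Between the ends of the path, LT-HSC and CDP, 126 of 347 were gained (36.3%, with 30.5% over all regions) and 15 lost (4.32%, with 6.85% over all regions). Selplg gained 11 of 19, Itga8 11 of 20, Itgam 10 of 14, Itgb5 10 of 17, Selp 8 of 12 and Pecam1 7 of 13, while Itga7 and Itgav each lost 3. At equal list length 61 of 200 were gained over this path (30.5%, with 21.3% over all regions) and 28 lost (14.0%, with 18.0% over all regions). Selplg then gained 3 of 9, Itga8 6 of 14, Itgam 5 of 8, Itgb5 5 of 8, Selp 1 of 5 and Pecam1 3 of 3. Without LT-HSC replicate 1, 127 were gained and 45 lost (36.8% and 13.0%, with 31.1% and 18.3% over all regions).

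Between wild-type and IRF8KO MDP, losses at adhesion genes ran at the background rate and were most numerous at Itga2. Of 335 regions, 46 were lost (13.7%, with 13.3% over all regions) and 7 gained (2.09%, with 3.96% over all regions). Itga2 lost 6 of 14, Itgb5 4 of 17, Itga1 4 of 15, Itga8 4 of 20, Itga2b 3 of 8 and Itga4 3 of 10. In all, 20 genes had a net loss and 1, Itgb6, a net gain. The IRF8KO lists are shorter than those of wild-type MDP. With all 4 lists cut to the same length, 28 of 293 were lost (9.56%, with 9.62% over all regions) and 18 gained (6.14%, with 7.41% over all regions). Itga2 then still lost 6 of 14, Itga1 4 of 12 and Itga8 4 of 19, whereas Itgb5 lost 2 of 14, Itga2b 1 of 7 and Itga4 1 of 6. Without MDP replicate 1, 75 regions were lost (23.4%, with 21.2% over all regions), and the 7 gains went to 13 without MDP replicate 2, 20 without IRF8KO replicate 1 and 14 without IRF8KO replicate 2, each below its background of 6.74%, 8.88% and 6.97%. These comparisons share libraries: wild-type MDP enters 3 of them and LT-HSC, LMPP and CDP 2 each.

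**Figure D2:**
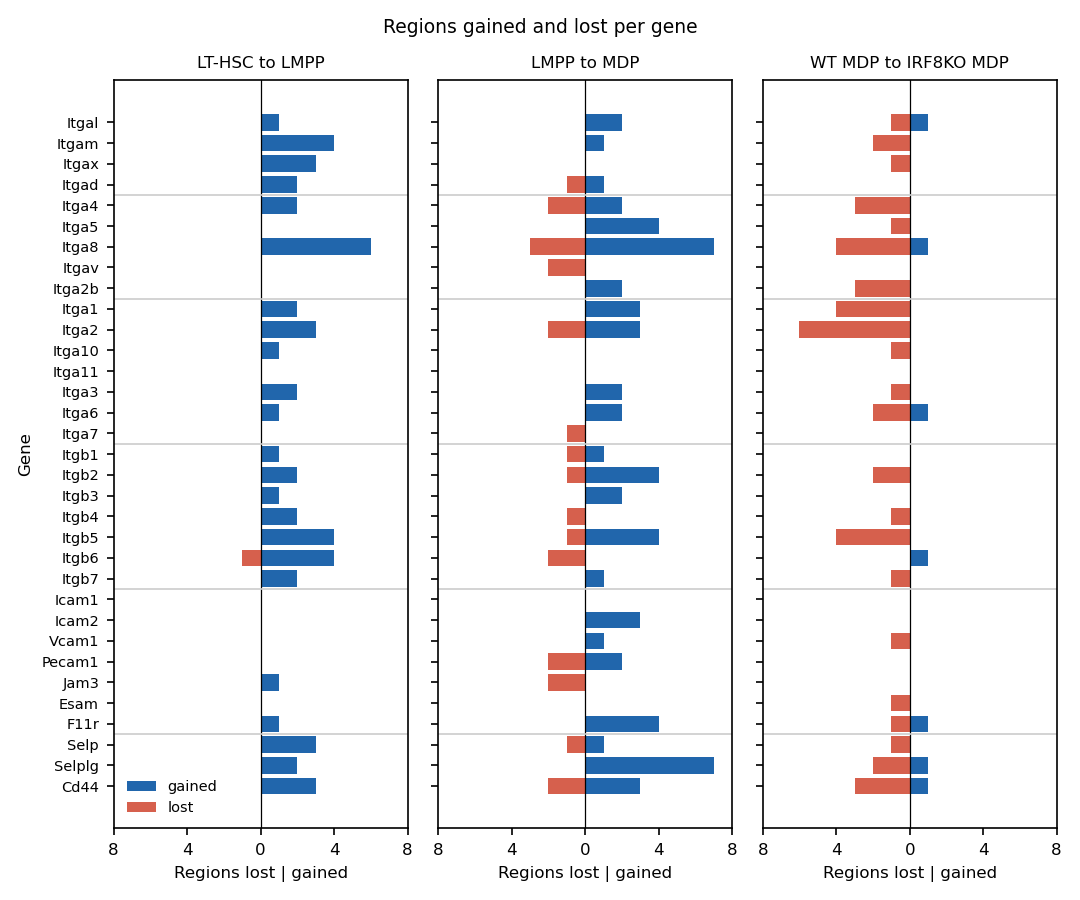
Number of regions lost (left of 0) and gained (right of 0) for each gene in 3 comparisons, with genes on the y axis in order of role. Itga8 and Selplg have the longest bars from LMPP to MDP (7 gained each), and Itga2 has the longest loss in IRF8KO MDP (6).

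Counted by pattern over the 10 libraries, 74 of 417 regions were open in every library (17.7%, with 17.0% over all regions), and 22 in the 4 wild-type MDP and CDP libraries and no other (5.28%, with 3.89% over all regions). Another 15 were open in all 6 CD115+ libraries and no other (3.60%, with 2.19% over all regions). Early patterns were rarer: 6 regions were open in the 4 LT-HSC and LMPP libraries only (1.44%, with 2.01% over all regions) and 9 in both LMPP libraries only (2.16%, with 3.78% over all regions). Replicates shared 0.543 of the adhesion gene regions found in either library for LT-HSC (Jaccard index), 0.811 for LMPP, 0.789 for MDP, 0.863 for CDP and 0.764 for IRF8KO MDP, close to 0.567, 0.766, 0.772, 0.806 and 0.754 over all regions.

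**Figure D3:**
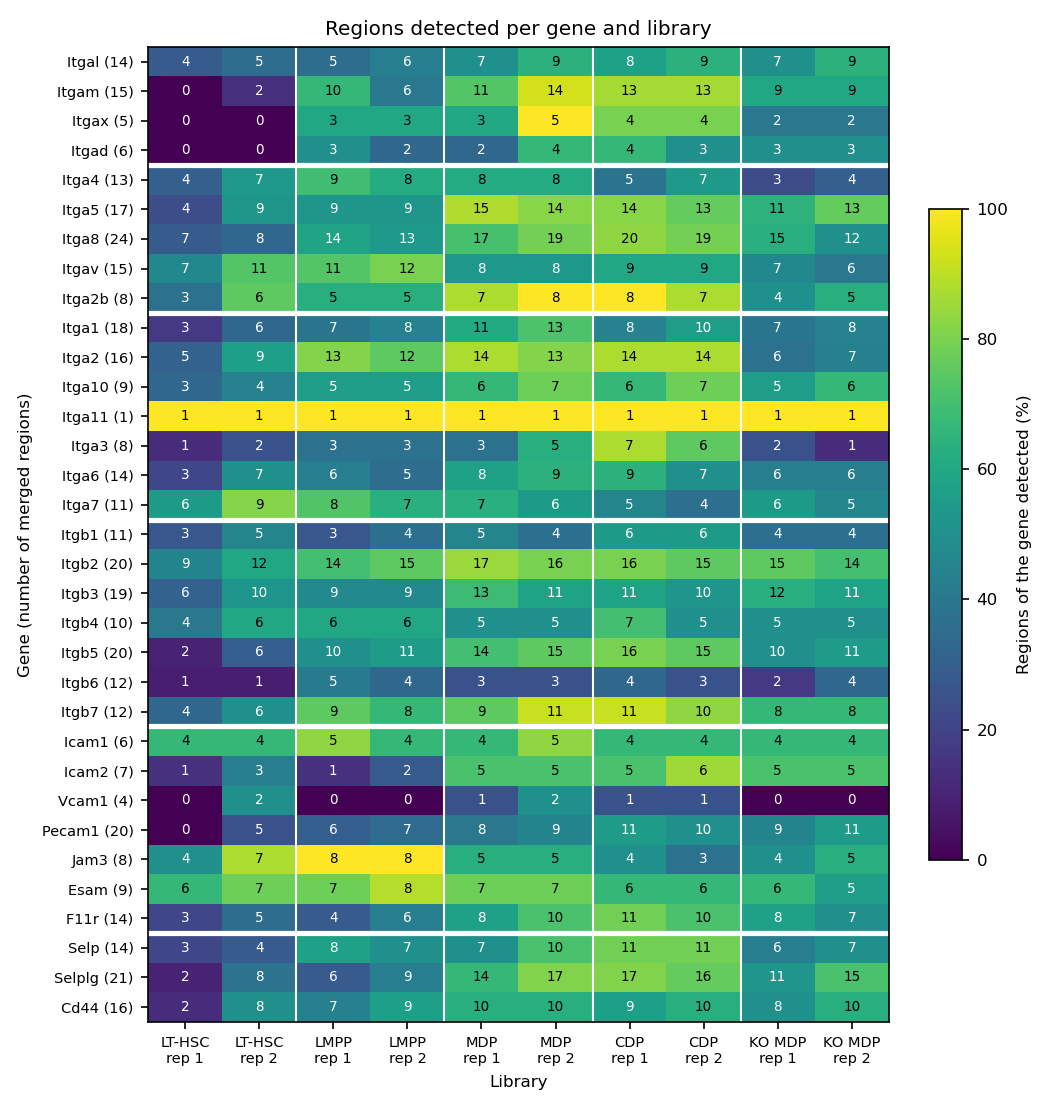
Regions with a peak for each gene (rows, with the number of merged regions in brackets) and library (columns), as numbers in the cells and as percent of the gene's regions in colour. White horizontal lines separate the roles; Itgam, Itgax and Itgad are at 0 in LT-HSC replicate 1, and Itga2 goes from 14 and 13 in MDP to 6 and 7 in IRF8KO MDP.

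The leukocyte-restricted alpha chains, which pair with the Itgb2 product, went from the least to among the most open of the 6 role groups. Of the 40 regions at Itgal, Itgam, Itgax and Itgad, LT-HSC libraries detected 10.0% and 17.5%, LMPP 52.5% and 42.5%, MDP 57.5% and 80.0%, CDP 72.5% each, and IRF8KO MDP 52.5% and 57.5%. Itgam, Itgax and Itgad lie side by side on chromosome 7 (128062640 to 128205504), and Itgal lies elsewhere on that chromosome. Itgam had 0 and 2 of its 15 regions in LT-HSC, 10 and 6 in LMPP, 11 and 14 in MDP, 13 and 13 in CDP, and 9 in each IRF8KO library. Itgax, the classic dendritic cell marker, had 0 of 5 in both LT-HSC libraries, 3 in each LMPP library, 3 and 5 in MDP, 4 in each CDP library and 2 in each IRF8KO library. Itgad had 0 of 6 in both LT-HSC libraries and 2 to 4 in all others. Itgal differed: 4 and 5 of 14 were already open in LT-HSC, and 7 to 9 were in the MDP, CDP and IRF8KO libraries.

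Together Itgam, Itgax and Itgad gained 9 of 16 regions from LT-HSC to LMPP (18.5% over all regions) and 16 of 23 from LT-HSC to CDP (30.5% over all regions). At equal list length the first count was 1 of 3 (11.3% over all regions) and the second 8 of 11 (21.3% over all regions). With lists as short as that of LT-HSC replicate 1, the 3 regions left were too few to judge the step into LMPP. The difference between LT-HSC and CDP was still seen at that length. These 3 genes were singled out after their values were seen. Where a region stands in its list gives a rough measure of its strength, given here as percent of rows from the top and on the assumption, which the headers do not state, that rows run from strong to weak. Lists differ in length, so a position places a region within its own library, and a difference in position between libraries was not read as a change. The region over the Itgam start (chromosome 7, 128062360 to 128064047) stood at 80.1% in LT-HSC replicate 2, 50.1% and 61.2% in LMPP, 21.9% and 19% in MDP, 18.9% and 18.5% in CDP, and 17.8% and 14.4% in IRF8KO MDP, and had no peak in LT-HSC replicate 1. It was thus well within the upper part of the list in all 6 CD115+ libraries. The Itgax start region (128127706 to 128129938) stood at 53.2% and 63.8% in LMPP, 42.2% and 31.8% in MDP, 15.1% and 28.5% in CDP, and 59.7% and 63.2% in IRF8KO MDP. Upstream of Itgam, the regions at -9.2 kb (128052954 to 128054017) and -5.9 kb (128056081 to 128057495) were lost in IRF8KO MDP. In wild-type MDP they stood at 73.9% to 87.2%, near the weak end, and neither was lost at equal list length, where Itgam lost 0 of 12.

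**Figure D4:**
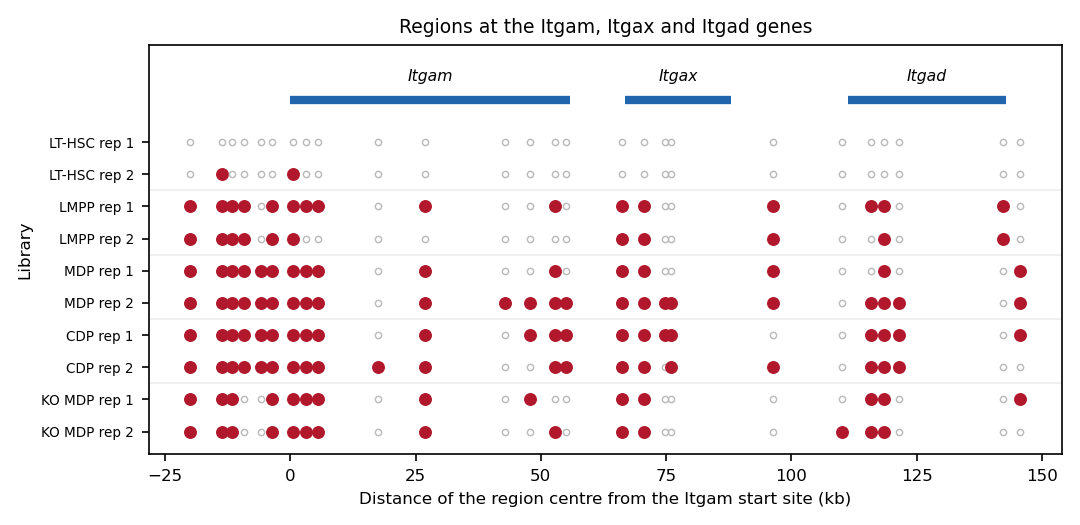
Regions at Itgam, Itgax and Itgad by distance of their centre from the Itgam start in kb (x axis) in each library (y axis); filled circles mark a peak, open circles none, and bars the genes. LT-HSC replicate 1 has no filled circle and LT-HSC replicate 2 has 2, whereas the other 8 libraries have filled circles along all 3 genes.

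Among alpha chains of the fibronectin, vitronectin and VCAM1 receptors, Itga8 and Itga5 gained regions along the path and Itgav lost some from LMPP to MDP. Itga8 had 7 and 8 of 24 regions in LT-HSC, 14 and 13 in LMPP, 17 and 19 in MDP, 20 and 19 in CDP and 15 and 12 in IRF8KO MDP. Its strongest new region in MDP lay beyond the 3′ end (chromosome 2, 12084194 to 12086039; 15.9% and 28.9% of the list) and had a peak in all MDP and CDP libraries and in IRF8KO replicate 1. Itga5 had 9 of 17 in both LMPP libraries and 15 and 14 in MDP. Itgav, the vitronectin receptor chain, ran the other way at that step, with 7 and 11 of 15 in LT-HSC, 11 and 12 in LMPP, 8 in each MDP library and 9 in each CDP library. Its regions at -18.0 kb (chromosome 2, 83705252 to 83707481) and 9.7 kb (83733615 to 83734614) had peaks in all 4 LT-HSC and LMPP libraries and in none of the other 6. In LMPP they stood at 22.9% to 48.2% of the list, so they were not marginal peaks there.

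Itga4, the chain of VLA-4, kept an open start throughout but changed within the gene. Its intragenic region 15.2 kb from the start (chromosome 2, 79269750 to 79271495) was among the strong ones in LT-HSC (11.8% and 5.86% of the list) and LMPP (12.2% and 11%). It had no peak in either CDP library and stood at 76.5% in MDP replicate 2 and 75.2% in IRF8KO replicate 2, the only other libraries with a peak. Itga2b, the platelet integrin chain CD41, which also marks early progenitors, had 3 and 6 of 8 regions in LT-HSC, 5 in each LMPP library, 7 and 8 in MDP, 8 and 7 in CDP, and 4 and 5 in IRF8KO MDP. Its start region (chromosome 11, 102469486 to 102470678) stood at 41.7% and 25.8% in LT-HSC, 36.5% and 24.7% in LMPP, 93.9% and 88.4% in MDP, and 52.8% and 61.5% in CDP. In MDP it was thus close to the end of the list, and how far its accessibility differs in IRF8KO MDP cannot be read from presence alone. Of 6 megakaryocyte marker starts, LT-HSC libraries had 4 and 5, LMPP 4 and 4, MDP 1 and 3, CDP 2 each and IRF8KO MDP 0 and 2. The part of such cells in the Itga2b values was not tested.

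The collagen receptor chains Itga1 and Itga2, neighbours on chromosome 13, were among the genes with the most regions lost in IRF8KO MDP. Itga2 had 5 and 9 of 16 regions in LT-HSC, 13 and 12 in LMPP, 14 and 13 in MDP, 14 and 14 in CDP, and 6 and 7 in IRF8KO MDP. The IRF8KO libraries thus fell below MDP, CDP and LMPP and within the range of LT-HSC. The Itga2 start printed above had a peak in all 10 libraries, and its region (114930988 to 114932642) stood at 21.6% and 17.8% in MDP and at 69.4% and 54.7% in IRF8KO MDP. The 6 lost regions were all inside the gene, at 7.1, 21.3, 42.4, 44.5, 46.4 and 91.3 kb from the start. The strongest of them, at 7.1 kb (114924410 to 114925501), stood at 12.6% and 15.8% in MDP, 13.5% and 18.6% in CDP, and 83.9% and 74.3% in LMPP, and had no peak in LT-HSC or IRF8KO MDP. The region at 44.5 kb (114887003 to 114888135) stood at 15.8% and 17.8% in MDP and 16.9% and 16.2% in CDP, and otherwise only LMPP replicate 1 had it, at 83.9%. Its neighbour at 46.4 kb (114884944 to 114886471) stood at 35.5% and 28.0% in MDP, and those at 21.3 (114910251 to 114911429), 42.4 (114889289 to 114890046) and 91.3 kb (114840308 to 114841214) had peaks in the 4 MDP and CDP libraries only. The count of 6 stayed between 6 and 7 with any 1 library left out, at equal list length, with the first 75% of rows and with peaks required to cover 50% of the region; Itga2 was chosen for these added counts after its values were seen.

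At Itga1, 3 and 6 of 18 regions were open in LT-HSC, 7 and 8 in LMPP, 11 and 13 in MDP, 8 and 10 in CDP, and 7 and 8 in IRF8KO MDP. The region 15.5 kb upstream of its start (chromosome 13, 115116747 to 115118179) was open in the 4 MDP and CDP libraries only. It stood at 18.6% and 16.3% in MDP and at 3.81% and 2.61% in CDP, which put it among the highest regions of the CDP lists. Itga3, a laminin receptor chain, had 1 and 2 of 8 in LT-HSC, 3 and 3 in LMPP, 3 and 5 in MDP, 7 and 6 in CDP, and 2 and 1 in IRF8KO MDP. Itga6, another laminin receptor chain and a stem cell marker in several tissues, had 3 and 7 of 14 in LT-HSC, 6 and 5 in LMPP, 8 and 9 in MDP, 9 and 7 in CDP, and 6 in each IRF8KO library. Itga7, the laminin receptor chain of muscle, was 1 of 3 genes with a net loss from LT-HSC to CDP: 6 and 9 of 11 in LT-HSC, 8 and 7 in LMPP, 7 and 6 in MDP, 5 and 4 in CDP, and 6 and 5 in IRF8KO MDP. Most of its regions lie nearer to another gene. Itga10 had 3 to 7 of 9 regions, and the single Itga11 region, open in all libraries, lay within Fem1b.

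**Figure D5:**
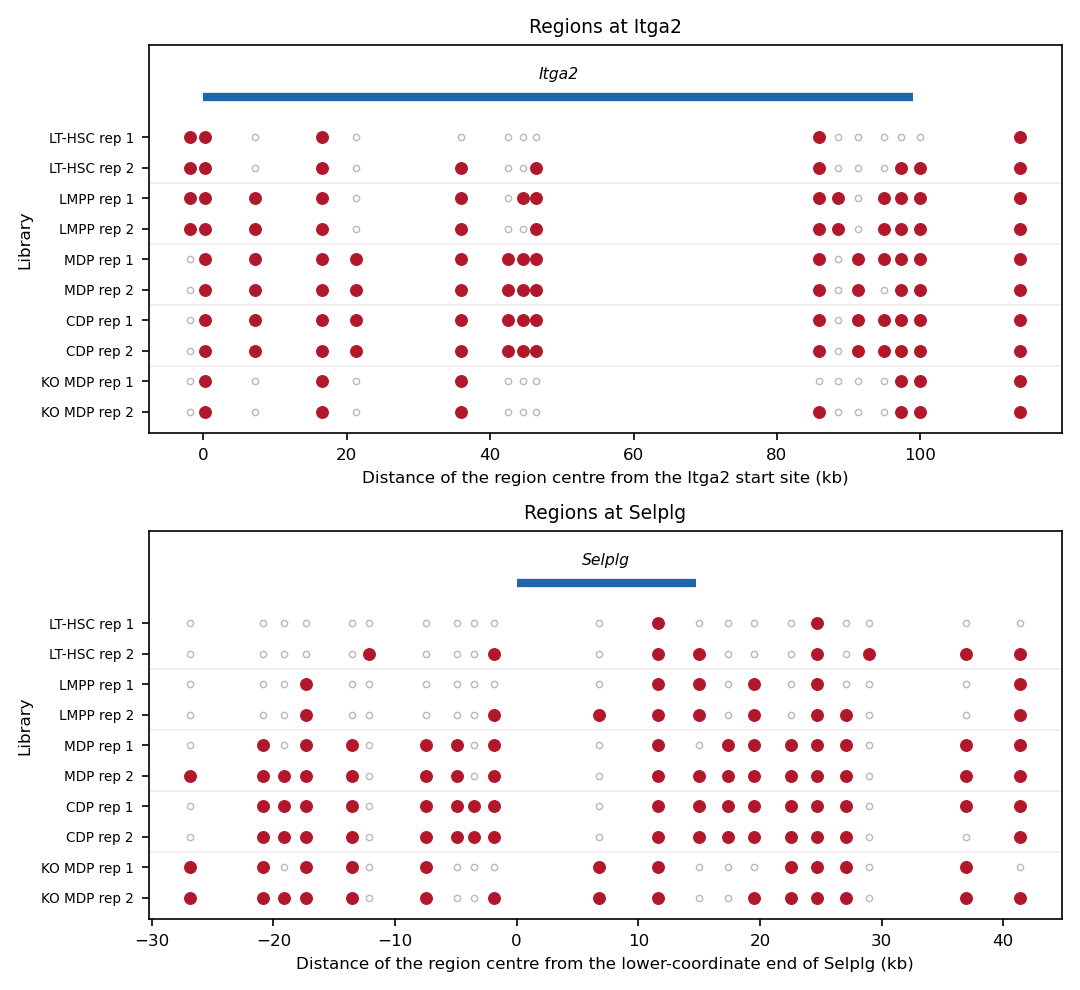
Regions at Itga2 (top, distance from its start) and Selplg (bottom, distance from its lower-coordinate end, since no strand was given for it) in each library; filled circles mark a peak, open circles none, and bars the genes. At Itga2, 6 columns filled in both MDP libraries are empty in both IRF8KO libraries, and at Selplg 7 columns empty in both LMPP libraries are filled in both MDP libraries.

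The beta chains gained 16 of 70 regions from LT-HSC to LMPP, at all 7 genes, and lost 1, beside the 18.5% gained over all regions. At equal list length they gained 7 of 42, at 4 of the 7 genes, and lost 6, beside 11.3% gained and 9.12% lost over all regions. Itgb2, the partner of the 4 leukocyte alpha chains, was open early: LT-HSC libraries had 9 and 12 of its 20 regions, LMPP 14 and 15, MDP 17 and 16, and CDP 16 and 15, with 15 and 14 in IRF8KO MDP. Its new intragenic region in MDP (chromosome 10, 77544824 to 77545586) had a peak in all 6 CD115+ libraries and no other, at 28.1% and 27.9% in MDP and 36.6% and 31.7% in IRF8KO MDP. Regions assigned to Itgb2 were thus open in LT-HSC at 9 or more, where its partner genes Itgam, Itgax and Itgad had at most 2. Itgal, the other partner gene, had 4 and 5 of 14 there. Several of the Itgb2 regions open in LT-HSC lie within or nearer to Fam207a or Pttg1ip than to Itgb2. Itgb5, a vitronectin receptor chain, went from 2 and 6 of 20 in LT-HSC to 10 and 11 in LMPP, 14 and 15 in MDP, 16 and 15 in CDP, and 10 and 11 in IRF8KO MDP. With lists cut to the length of LT-HSC replicate 1, Itgb5 had 2 and 3 in LT-HSC, 3 and 3 in LMPP, and 8 and 7 in CDP. It then gained 1 and lost 1 of 5 from LT-HSC to LMPP, and gained 5 of 8 from LT-HSC to CDP. Its region 56.4 kb from the start (chromosome 16, 33884809 to 33887386) stood at 65.3% and 49.2% in MDP, 10.7% and 12.3% in CDP and 82.8% in IRF8KO replicate 2, and no other library had it.

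Itgb7, the partner of the alpha4 chain in gut-homing lymphocytes, gained its start region (chromosome 15, 102230740 to 102233248) in LMPP. That region stood at 33.3% and 35.4% in LMPP, 23.9% and 18.8% in MDP, 5.04% and 4.26% in CDP, and 66.4% and 42.5% in IRF8KO MDP. It was thus near the top of both CDP lists. Itgb6, an epithelial chain, had at most 5 of 12 regions in any library, and 3 of its regions had peaks only in both LMPP or only in both LT-HSC libraries. Itgb1, the common partner of most alpha chains, had 3 to 6 of 11, Itgb3, the platelet chain, 6 to 13 of 19, and Itgb4, an epithelial chain, 4 to 7 of 10.

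Ligands and junction molecules of the immunoglobulin family did not move together. Icam2, a ligand of LFA-1, had 1 and 3 of 7 regions in LT-HSC, 1 and 2 in LMPP, and 5 or 6 in all MDP, CDP and IRF8KO libraries, and 2 of its 3 regions gained in MDP lie within the neighbouring gene Scn4a. Pecam1 (CD31) had 0 and 5 of 20 in LT-HSC, 6 and 7 in LMPP, 8 and 9 in MDP, 11 and 10 in CDP, and 9 and 11 in IRF8KO MDP. F11r had 3 and 5 of 14 in LT-HSC, 4 and 6 in LMPP, 8 and 10 in MDP, 11 and 10 in CDP, and 8 and 7 in IRF8KO MDP. These 3 were higher in every MDP library than in every LMPP library. Jam3, a junction molecule expressed by stem cells, went down instead: it had all 8 regions in both LMPP libraries, 5 in each MDP library, 4 and 3 in CDP, and 4 and 5 in IRF8KO MDP. Esam, an endothelial and stem cell junction molecule, had 5 to 8 of 9, and Icam1 4 or 5 of 6 with no call in any comparison. Vcam1 had at most 2 of 4 regions, and its region inside the gene (chromosome 3, 116122637 to 116123283) was open in the 4 MDP and CDP libraries only. Of 6 endothelial marker starts, LT-HSC libraries had 3 and 6, LMPP 6 and 6, MDP 4 and 2, CDP 3 each, and IRF8KO MDP 2 each, with Tek and Emcn open only in LT-HSC and LMPP. The part of such cells in these values was not tested.

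Of the rolling receptors, Selplg opened from LMPP to MDP over both flanks. It had 2 and 8 of 21 regions in LT-HSC, 6 and 9 in LMPP, 14 and 17 in MDP, 17 and 16 in CDP, and 11 and 15 in IRF8KO MDP. Every MDP and CDP library was above every LMPP and LT-HSC library. The count of 7 gained of 18 ranged from 7 to 9 with 1 library left out, and was 8 at equal list length and 5 with the first 75% of rows; Selplg was chosen for these added counts after its values were seen. Several of the gained regions lie nearer to Tmem119 or Coro1c than to Selplg. A region 19.5 kb from the lower-coordinate end (chromosome 5, 113836675 to 113837873) was gained in LMPP and stood at 20.7% and 20.4% in MDP.

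Selp had 3 and 4 of 14 in LT-HSC, 8 and 7 in LMPP, 7 and 10 in MDP, 11 and 11 in CDP, and 6 and 7 in IRF8KO MDP. The rise from LT-HSC depended on list length. With lists cut to the length of LT-HSC replicate 1, Selp had 3 and 4 in LT-HSC, 1 and 3 in LMPP, and 4 and 4 in CDP. Just upstream, 2 adjacent regions had opposite patterns: that at -5.2 kb (chromosome 1, 164109780 to 164110410) was open in the 4 LT-HSC and LMPP libraries only, and that at -4.2 kb (164110618 to 164111416) in the 4 MDP and CDP libraries only. The latter stood at 26.6% and 33.9% in MDP and 81.7% and 73.2% in CDP. Cd44, the hyaluronan receptor, had 2 and 8 of 16 in LT-HSC, 7 and 9 in LMPP, 10 and 10 in MDP, 9 and 10 in CDP, and 8 and 10 in IRF8KO MDP. Its region 86.1 kb from the start (chromosome 2, 102815107 to 102816077) was open in all 8 wild-type libraries and in neither IRF8KO library, and stood at 35.0% and 40.5% in MDP.

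The 46 regions lost in IRF8KO MDP were spread over 22 genes, with 21 inside genes and 25 in flanks, 1 of them over a start. By role, the collagen and laminin receptor chains lost 14 of 62 regions, the fibronectin, vitronectin and VCAM1 receptor chains 11 of 63, the beta chains 8 of 82, the selectin axis with Cd44 6 of 44, the leukocyte alpha chains 4 of 35, and the immunoglobulin-family molecules 3 of 49, beside the 13.3% lost over all regions. At equal list length, beside 9.62% over all regions, these counts were 12 of 53, 7 of 56, 2 of 71, 4 of 42, 0 of 29 and 3 of 42 in the same order. The 7 gains were 1 each at Itgb6, Itga6, Itgal, F11r, Cd44, Selplg and Itga8. Those at Itgb6 (chromosome 2, 60737014 to 60737723) and Itga6 (chromosome 2, 71810828 to 71811402) had peaks in the IRF8KO libraries alone. Of 7 neutrophil marker starts, MDP libraries had 6 and 6 and IRF8KO MDP 7 and 6. S100a9 was open in both IRF8KO and neither wild-type MDP library. Ltf was open in both wild-type MDP libraries and missed in IRF8KO replicate 2. Of 5 MDP marker starts, wild-type MDP libraries had 5 and 5 and IRF8KO MDP 4 and 4. Ly86, a monocyte lineage marker, was missed in both IRF8KO libraries, while Cx3cr1, Irf8, Mpo and Ccr2 were open in both. The part of neutrophil or monocyte lineage cells in these losses was not tested.

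The rest of the adhesion machinery was described by 2 further lists. Of 40 genes for integrin activation and adaptors (talins, kindlins, RAP1, SRC-family and SYK kinases), regions were gained at 17.4% from LT-HSC to LMPP, 14.7% from LMPP to MDP, 6.33% from MDP to CDP and 30.7% from LT-HSC to CDP, and lost at 1.90%, 7.14%, 3.47% and 3.15%. In IRF8KO MDP they lost 9.17% and gained 4.17%. Kindlin-3 (Fermt3), the activator of leukocyte integrins, had no gained or lost region among its 8, while Nedd9, a focal adhesion scaffold, gained 8 of 19 from LMPP to MDP. Of 24 adhesion receptors outside the 33 genes, regions were gained at 24.7%, 17.3%, 11.4% and 40.7% over the same 4 steps and lost at 2.25%, 8.41%, 3.38% and 4.56%, and in IRF8KO MDP they lost 17.1% and gained 4.27%. Losses from LMPP to MDP were thus below the 13.4% background in both lists, as they were at the 33 genes. Itgb8, a partner of the alphav chain, gained 7 of 12 from LMPP to MDP and lost 7 of 13 in IRF8KO MDP, and Itga9 gained 22 of 42 from LT-HSC to CDP.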

How the data were processed

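Of the deposited files, 10 peak lists in BED form were used, 1 per library. The submitters' processing notes name Bowtie 1.1.2, HOMER 4.9 and the build mm10/GRCm38. Peaks were called by HOMER within each library alone, per the file headers (size 500, minimum distance 1000, false discovery rate 0.001, 4-fold over the local background, at most 1 tag per base), with the same settings in all 10. The deposited score column holds the constant 1, so the lists give no height per peak. Any shift of reads for the Tn5 cut was not given in the sources used here.

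Peaks were merged and overlapped in Python 3.11.15 with pandas 2.3.3 and numpy 2.4.6 (minimum overlap 1 bp). Group shares were compared by an exact two-sided permutation test written with the same tools. The code for merging and calling was run on simulated lists whose replicates held the same peaks. Such lists check the code only and do not measure how reliable calls are in the real lists. Gene spans and start sequences came from RefSeq tables of GRCm38.p6, and coordinates are 1-based. For genes with no strand in these tables, distances run from the lower-coordinate end. Alternatives were equal list length, the first 75% of rows, peaks covering 50% of the region, a 10 kb window, each library left out and the replicate number as a block.

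The members and lists were chosen with earlier results of these data known. Named in full are up to 6 genes with the most gained and the most lost regions of a comparison, up to 5 regions each way that stand highest in the lists, and called starts; other regions and genes were chosen after their values were seen. One symbol of the receptor list was not matched.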

Additional observations from a re-analysis of the deposited data

How the results depend on the processing

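Peak lists give presence without height, and 2 libraries a group allow no p below 0.33, so counts were read against the background only. Across 5 comparisons and all alternatives, 54 of 80 recomputed counts stayed within 1.5 times the reported one. At equal list length, gains from LT-HSC to LMPP went from 53 to 14 and losses from 1 to 14, gains and losses from LT-HSC to CDP from 126 to 61 and from 15 to 28, and gains and losses in IRF8KO MDP from 7 to 18 and from 46 to 28. The shares over all regions for these counts are given above. The differences in the share detected went from 18.2 to 0.480 points (LT-HSC to LMPP), 13.1 to 13.3 (LMPP to MDP), 0.959 to -2.76 (MDP to CDP), 32.3 to 7.31 (LT-HSC to CDP) and -14.0 to -2.88 (IRF8KO MDP). With the first 75% of rows, losses from LT-HSC to LMPP were 2 (0.976%, with 2.28% over all regions). With peaks covering 50% of the region, gains from MDP to CDP were 33 (9.94%, with 11.8% over all regions). In a 10 kb window, gains from MDP to CDP were 13 (5.33%, with 8.80% over all regions) and losses 6 (2.46%, with 4.94%). Losses from LT-HSC to CDP were 9 in that window (3.73%, with 6.85% over all regions). With 1 library left out, gains and losses ranged from 54 to 99 and 2 to 29 (LT-HSC to LMPP), 74 to 91 and 28 to 37 (LMPP to MDP), 27 to 38 and 19 to 32 (MDP to CDP), 127 to 173 and 15 to 45 (LT-HSC to CDP), and 10 to 20 and 58 to 75 (IRF8KO MDP). For LT-HSC to LMPP the shares were 19.8% to 40.1% and 0.772% to 10.6%, with 19.1% to 37.2% and 3.07% to 9.92% over all regions. For LMPP to MDP they were 21.6% to 27.2% and 8.36% to 11.6%, with 16.0% to 19.3% and 16.3% to 20.2% over all regions. For MDP to CDP they were 8.13% to 11.6% and 5.64% to 9.64%, with 12.4% to 15.5% and 6.55% to 9.91% over all regions. For LT-HSC to CDP they were 36.8% to 54.6% and 4.48% to 13.0%, with 31.1% to 46.0% and 7.64% to 18.3% over all regions. For IRF8KO MDP they were 3.12% to 6.10% and 17.7% to 23.4%, with 5.76% to 8.88% and 16.3% to 21.2% over all regions. A call then needs 3 libraries in place of 4, so counts and background rise together. Losses without LT-HSC replicate 1 were 29 and 45, the highest of their ranges.

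Replicate numbers did not pair the samples: same-numbered deviations correlated at -0.0165 to 0.0129 over 10 pairs of groups. With the replicate block, the differences in share were 18.2, 13.1, 0.959, 32.3 and -14.0 points, with exact p = 0.500 as the smallest possible for 4 of them and 1.00 for MDP to CDP. The count of Itgam, Itgax and Itgad regions gained from LT-HSC to LMPP, added after seeing the data, went from 9 to 3 with peaks covering 50% of the region and to 14 without LMPP replicate 2.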
